A study of Homo sapiens with 8 samples.

Results

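The AP-1 and EGR immediate early transcription factors were followed in clear cell renal cell carcinoma (RCC) cells cultured with or without branched-chain amino acids (BCAA). They are 10 genes chosen by name: FOS, FOSB, FOSL1 and FOSL2 of the FOS family, JUN, JUNB and JUND of the JUN family, and EGR1, EGR2 and EGR3. All 10 were found, among 27776 genes listed for either cell line, in the tables of both 769-P and CAKI-1, and all 10 passed the filter for testing, a mean value of at least 1. RNA sequencing was done on these 2 established human RCC lines after 16 hours in medium lacking BCAA or supplemented with valine (0.17 mM), leucine (0.38 mM) and isoleucine (0.38 mM). The 4 groups (769-P with BCAA, 769-P without, CAKI-1 with and CAKI-1 without) held 2 libraries each. The study's legend gives a larger number of replicates than the libraries analysed here. Per the study's methods, medium lacking BCAA was made from an RPMI 1640 powder free of amino acids with dialyzed serum, whereas CAKI-1 is otherwise grown in MEM and 769-P in RPMI 1640. The comparison therefore set BCAA added to a depleted medium against that medium, and not against ordinary culture.

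Immediate early genes are transcribed within minutes of growth factor, stress or nutrient signals, without new protein synthesis, mostly through SRF with its ternary complex factors and through CREB and ATF proteins on their promoters. FOS and JUN proteins pair through leucine zippers to form AP-1, which binds TGAGTCA and related sites. JUN proteins can also pair with one another, whereas FOS proteins need a JUN or ATF partner. EGR proteins are zinc finger factors that bind GC-rich sites and are held back by the co-repressors NAB1 and NAB2. In epithelial tumor cells FOSL1, which encodes FRA-1, is known for its place in migration and invasion programs.

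The 250 bases before the RefSeq transcription start (GRCh38.p14) were read for 8 of the 10 genes; FOSL1 and EGR3 had no match. Promoters of 4 genes are shown because JUN and JUNB were lower with BCAA, FOS was higher in 769-P, and EGR1 carries the SRF sites typical of this gene class. Each runs 5′ to 3′ on the gene's strand and ends at the base before the start. Capitals mark the JUN-type AP-1 site in JUN, the TATA box in JUNB and in FOS, and in EGR1 an EGR site followed by a pair of CArG boxes, the sites of SRF.
JUN: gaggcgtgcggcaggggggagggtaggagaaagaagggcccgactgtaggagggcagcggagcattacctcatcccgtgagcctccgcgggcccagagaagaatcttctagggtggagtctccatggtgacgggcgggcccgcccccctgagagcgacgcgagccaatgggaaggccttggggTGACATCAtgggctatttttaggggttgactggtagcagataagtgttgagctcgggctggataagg
JUNB: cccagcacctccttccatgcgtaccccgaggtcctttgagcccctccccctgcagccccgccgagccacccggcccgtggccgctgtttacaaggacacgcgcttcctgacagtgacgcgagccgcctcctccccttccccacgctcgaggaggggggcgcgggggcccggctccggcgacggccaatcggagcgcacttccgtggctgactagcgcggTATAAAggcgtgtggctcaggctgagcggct
FOS: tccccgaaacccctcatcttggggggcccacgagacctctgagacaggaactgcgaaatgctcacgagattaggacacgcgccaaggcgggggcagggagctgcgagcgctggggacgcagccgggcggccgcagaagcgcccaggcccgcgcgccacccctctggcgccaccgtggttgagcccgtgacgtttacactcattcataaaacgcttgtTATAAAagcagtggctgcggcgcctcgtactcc
EGR1: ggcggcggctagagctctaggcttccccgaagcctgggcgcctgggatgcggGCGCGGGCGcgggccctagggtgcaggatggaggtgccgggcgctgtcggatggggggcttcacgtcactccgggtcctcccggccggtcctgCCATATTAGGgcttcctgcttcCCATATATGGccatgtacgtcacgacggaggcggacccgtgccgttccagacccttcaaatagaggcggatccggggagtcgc

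The JUN stretch lies at chr1:58784048-58784297 on the minus strand. Its TGACATCA, a variant AP-1 site through which JUN is known to act on its own promoter, lay 67 to 60 bases before the start. This motif was present on either strand in 2.38% of 35116 promoters of the same length. The other stretches, on the plus strand, are JUNB at chr19:12791236-12791485, FOS at chr14:75278578-75278827 and EGR1 at chr5:138465229-138465478. The TATA box TATAAA stood 31 to 26 bases before the start in JUNB and 33 to 28 in FOS, and was also in FOSB, against 10.7% of all promoters. In EGR1 the CArG boxes lay 105 to 96 and 83 to 74 bases before the start. Within the 250 bases, CArG boxes were in 1.16% of all promoters, and among the other factors in EGR2 at 1 of its starts. Sites further upstream, in FOS or any other factor, were not searched. The EGR site GCGNGGGCG of EGR1, 198 to 190 bases before its start, was in 8.42% of all promoters. The CRE TGACGTCA was in JUND and in 1.65% of all promoters. Neither the consensus AP-1 site TGAGTCA (4.20% of all promoters) nor the ATF4 and C/EBP composite TGATGNAA (3.14%) was in these windows of the 8 genes. Both strands were searched for each motif, and none of the matches in capitals overlapped another searched motif.

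Between 30979773 and 64256834 reads per library lay on listed genes. In 769-P the libraries with BCAA (64256834 and 55829324 reads) were deeper than those without (39062721 and 40130258), so that depth and condition went together in this line. After thinning to the smallest library, the differences with BCAA in 769-P were -1.0 for JUN and 2.05 for FOS on the log2 scale, and both passed the test. Replicates differed by more than sampling noise. The labels do not say that they came from separate cultures, so p-values measure only the spread between these samples, which may be technical. PAX8, KRT8, KRT18 and VIM, markers of renal carcinoma cells, were read in all 8 libraries, while CA9 was not listed for either line and PAX2 not for CAKI-1. In 769-P NDUFA4L2 had only 1 and 3 reads with BCAA and 1 and 1 without. EPCAM had 24 and 25 reads with BCAA and 11 and 23 without in that line. Levels of some renal markers differed with condition too. By limma, 4 of 6 tested renal markers in CAKI-1 were lower with BCAA (66.7%, beside 9.05% of all genes) and 0 higher (beside 10.8%). The counts were 5 and 1 at an unadjusted p under 0.05, 4 and 0 by edgeR, and 3 and 0 by DESeq2. The log2 fold changes were -0.65 for VIM, -1.12 for NDUFA4L2, -0.53 for EPCAM and -0.27 for KRT18. In 769-P, 1 of 7 was lower (PAX8, -0.64) and 2 were higher (PAX2, 0.29, and KRT8, 0.18). These were 14.3% and 28.6% of the markers tested there, beside 18.2% and 20.3% of all genes. Of 8 markers of leukocytes, endothelium, fibroblasts and hepatocytes, 5 were listed in each line. They summed to 159 to 196 normalized read counts per library with BCAA and 216 to 229 without in 769-P, and to 120848 to 145202 and 98618 to 116337 in CAKI-1, nearly all of it COL1A1. COL1A1 was higher with BCAA in CAKI-1 (0.31, limma adjusted p = 0.043) and had -0.41 in 769-P (0.069), and the difference between lines passed (-0.71, 0.0028). Without COL1A1 the sum was 13.7 to 18.2 with BCAA and 3.67 to 13.7 without in 769-P, and 2.50 to 5.84 and 5.15 to 9.50 in CAKI-1. The part of these markers in the results was not tested.

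In 769-P, 4 of the 10 factors were lower with BCAA (JUN, JUNB, FOSL1 and FOSL2), 1 was higher (FOS) and 5 were not called. JUN was 1.98-fold lower, JUNB 1.52-fold, and FOSL1 and FOSL2 1.24-fold and 1.21-fold. Over all 22391 genes tested in this line, 18.2% were lower and 20.3% higher with BCAA, beside 40% and 10% of these 10 genes, a comparison given without a test. The shares over all genes, here and below, include genes with few reads, which lowers them. With a mean filter of 10, 4221 of 16047 genes were lower and 4709 higher in 769-P. The same filter gave 2051 lower and 2398 higher of 15550 genes in CAKI-1. In CAKI-1, 1 factor was lower (JUNB) and 0 were higher, against 9.05% lower and 10.8% higher among 21347 genes tested. At an unadjusted p under 0.05 these CAKI-1 counts were 2 and 0, and edgeR and DESeq2 each gave 1 and 0. The median log2 fold change of the 10 factors was -0.23 in 769-P and -0.33 in CAKI-1, beside -0.02 and -0.01 over all genes tested. The CAKI-1 median includes FOS (-1.03), EGR2 (-0.93) and EGR3 (-1.09), which had at most 28 reads per library there and were not called. EGR3, at the floor of 3 reads in 769-P, is also in the 769-P median. The 2 medians therefore do not rank the lines. Calls are at an adjusted p of 0.05 (limma on log2(value + 1), Benjamini-Hochberg over all genes), without a minimum fold change, and fold changes on this scale understate those of genes with few reads. In bulk RNA, fewer cells of a type and less RNA per cell cannot be told apart.

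**Figure D1:**
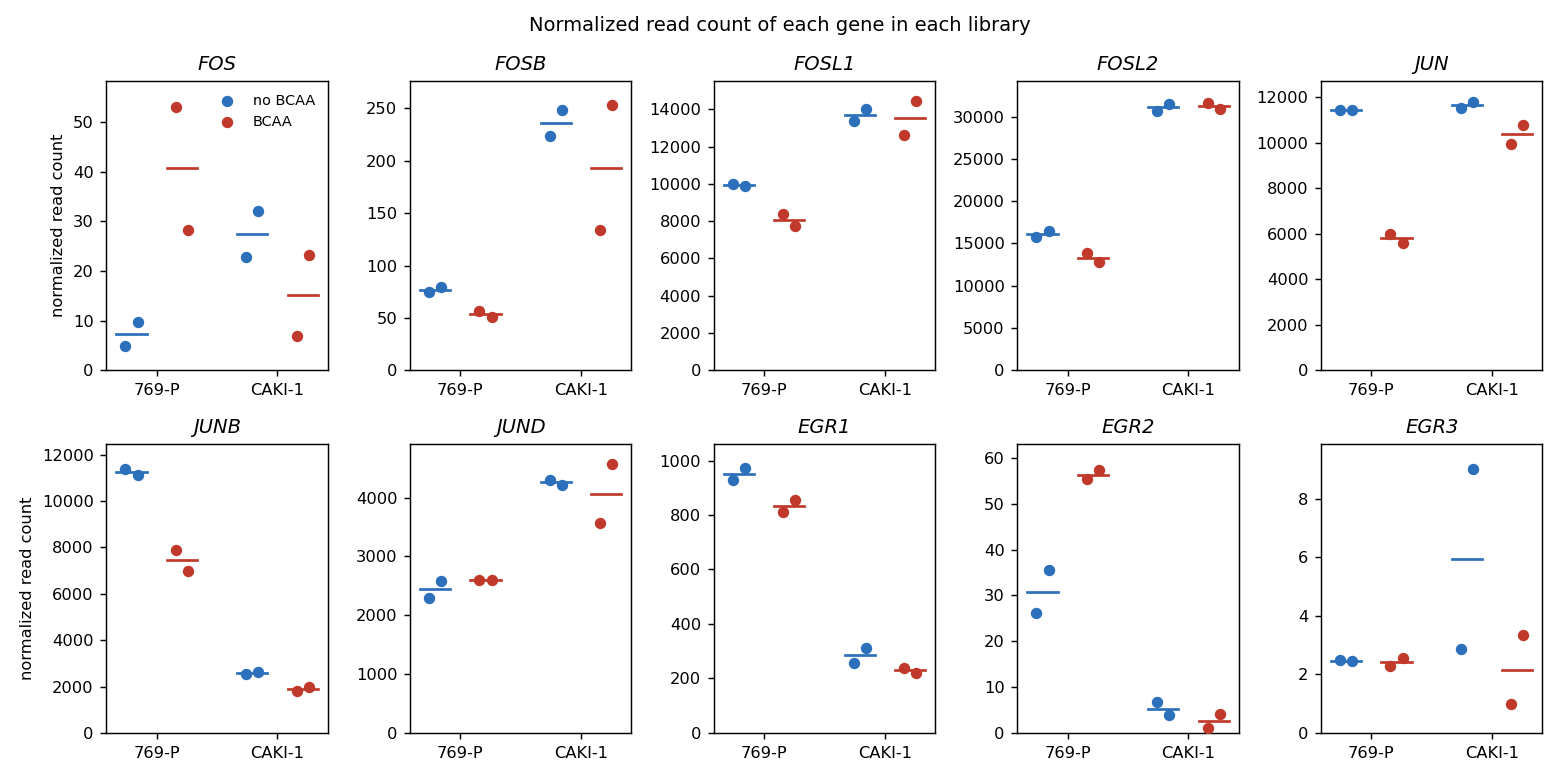
Normalized read count (vertical axis, linear, from 0) of each factor in each of the 8 libraries; blue points are libraries without BCAA, red points libraries with BCAA, and lines the mean of 2. In 769-P the JUN libraries sit at 5599 and 5998 with BCAA and at 11455 and 11460 without, while FOS lies at 53.1 or below in every library of both lines.

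JUN is the defining AP-1 subunit and the strongest activator among JUN proteins. The gene is a single exon at chr1:58780788-58784327 (minus strand, GENCODE 29, GRCh38). In 769-P its normalized read counts were 5998 and 5599 with BCAA and 11460 and 11455 without. Both libraries with BCAA lay far below both without, and replicates were close. The log2 fold change was -0.98 ± 0.05 (SE, 2 against 2 libraries; limma adjusted p = 1.2e-08). By p-value JUN stood at place 153, and by size of change at place 993, among the 4069 genes lower with BCAA. In CAKI-1 the counts were 9947 and 10798 with BCAA and 11519 and 11803 without. The groups did not overlap here either, but the change of -0.17 on the log2 scale (95% confidence interval -0.30 to -0.04) missed the threshold (limma adjusted p = 0.065). It passed with the spread taken from all 8 libraries (adjusted p = 0.031). The effect differed between the lines by -0.81 ± 0.07 (SE; interaction term, limma adjusted p = 5.5e-06). Across all genes tested in both lines, 21.1% had such a difference, and 4 of the 10 factors had it: JUN, FOSL1, FOSL2 and FOS.

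JUNB, another single-exon gene (chr19:12791496-12793315, plus strand), encodes a weaker activator that can oppose JUN. It was lower with BCAA in both lines. In 769-P the normalized read counts were 7892 and 6993 with BCAA and 11399 and 11124 without. In CAKI-1 they were 1822 and 1997 with BCAA and 2525 and 2624 without. In each line every library with BCAA lay below every library without. The log2 fold changes were -0.60 ± 0.06 in 769-P (SE; limma adjusted p = 3.5e-06) and -0.43 ± 0.07 in CAKI-1 (adjusted p = 0.0013). Their difference of -0.17 had a 95% confidence interval of -0.37 to 0.03 (limma adjusted p = 0.23). The call in 769-P was lost without either library lacking BCAA (adjusted p = 0.051 each time), and the call in CAKI-1 without any of its 4 libraries (0.056 to 0.17). Without 1 CAKI-1 library no gene of the whole table was called. Of the JUNB exon length, 14.2% overlaps HOOK2 on the other strand, and the sources used here do not say whether reads were counted by strand.

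JUND, the JUN family member usually held at a steady level and able to slow growth, gave no call in either line. In 769-P its normalized read counts were 2608 and 2593 with BCAA and 2302 and 2590 without. In CAKI-1 they were 3563 and 4570 with BCAA, and 4296 and 4222 without. The groups almost touched in 769-P and overlapped in CAKI-1. The log2 fold changes were 0.09 (95% confidence interval -0.05 to 0.23) in 769-P and -0.08 (-0.29 to 0.13) in CAKI-1, so changes of the size seen for JUN in 769-P lay outside both intervals.

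Per exon length, as RPKM (reads per kb of GENCODE 29 exon, scaled to each library's reads on listed genes), the shares of the JUN family members differed with BCAA in 769-P. JUN made up 22.8% and 23.2% of the JUN family with BCAA and 30.2% and 30.1% without. JUND went the other way, from 11.5% and 12.9% without BCAA to 18.8% and 20.4% with it. JUNB held 56.4% to 58.4% in all 4 libraries. The family total was an RPKM of 153 and 143 with BCAA and 221 and 219 without. In CAKI-1 JUN was the largest member with 46.2% to 49.1% in all 4 libraries, and JUNB took 16.6% and 17.5% with BCAA and 20.0% and 20.5% without. The CAKI-1 family total was 145 and 169 with BCAA and 176 and 177 without. These shares are a description without a test.

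**Figure D2:**
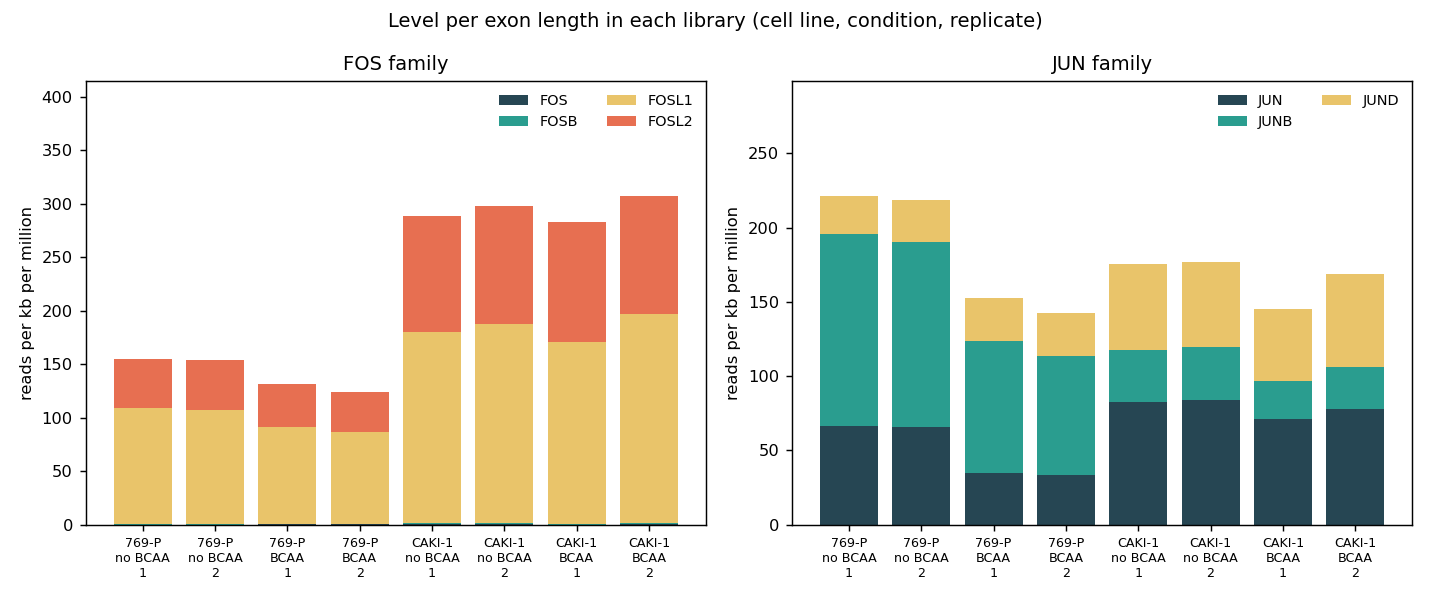
RPKM (vertical axis, linear; reads per kb of exon, scaled to each library's reads on listed genes) stacked by gene for the FOS family (left) and the JUN family (right) in each of the 8 libraries. The JUN family total of 769-P lies at 143 and 153 with BCAA and at 219 and 221 without, and FOS and FOSB are too low to see.

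FOSL1 and FOSL2, which encode FRA-1 and FRA-2, made up nearly all FOS family transcripts in both lines. FOSL1 took 69.4% to 70.5% of the family per exon length in 769-P and 60.05% to 63.6% in CAKI-1, and FOSL2 nearly all of the rest. FRA-1 and FRA-2 lack the strong activation domain of FOS and form the more lasting AP-1 complexes. FOSL1 (chr11:65892049-65900573, minus strand) had normalized read counts of 8388 and 7733 with BCAA and 9978 and 9910 without in 769-P. FOSL2 (chr2:28392448-28417312, plus strand) had 13842 and 12812 with BCAA and 15739 and 16453 without. For both genes the groups did not overlap in 769-P and replicates were close. The log2 fold changes were -0.30 ± 0.05 for FOSL1 (SE; limma adjusted p = 0.0003) and -0.27 ± 0.05 for FOSL2 (0.00059). In CAKI-1 FOSL1 had 12608 and 14452 with BCAA and 13383 and 14006 without, and FOSL2 had 31633 and 30927 with BCAA and 30611 and 31534 without. Both genes overlapped between the CAKI-1 groups. The change was -0.02 (95% confidence interval -0.17 to 0.13) for FOSL1 and 0.01 (-0.11 to 0.13) for FOSL2. The effect differed between the lines by -0.28 for each gene (interaction term, limma adjusted p = 0.037 for FOSL1 and 0.01 for FOSL2), and for FOSL2 that call was lost without 769-P no BCAA replicate 2 (0.071). For FOSL2 the call in 769-P was lost without any of the 4 libraries, and for FOSL1 without either library lacking BCAA. For FOSL1 the call of the difference was lost in 6 of the 8 fits without 1 library, and with a pseudocount of 0.1 or median centering (limma adjusted p = 0.051 and 0.052).

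FOS, the classic immediate early gene (chr14:75278774-75282230, plus strand), is transcribed briefly after a stimulus and its mRNA decays fast. Few reads fell on it after 16 hours. In 769-P it had 70 and 33 reads with BCAA and 4 and 8 without, which gave normalized read counts of 53.1 and 28.2 against 4.97 and 9.78. Both libraries with BCAA lay above both without, and replicates differed widely within each group. The log2 fold change was 2.31 ± 0.52 (SE; limma adjusted p = 0.0039), which put FOS at place 158 by size and place 3092 by p-value among the 4536 genes higher with BCAA. The call was lost without any of the 4 libraries, with log2 fold changes from 1.87 to 2.75 and adjusted p from 0.075 to 0.19. In CAKI-1 the normalized read counts were 6.81 and 23.3 with BCAA and 22.8 and 32.2 without, and the groups overlapped. The change there was -1.03 (95% confidence interval -2.26 to 0.20; limma adjusted p = 0.24). The effect differed between the lines by 3.34 ± 0.83 (SE; interaction term, limma adjusted p = 0.011), a call that was lost without 769-P BCAA replicate 1 (0.066).

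FOSB, a close relative of FOS that is also brief after a stimulus (chr19:45467995-45475179, plus strand), was not called. In 769-P it had normalized read counts of 56.1 and 50.5 with BCAA and 74.5 and 79.5 without. In CAKI-1 it had 134 and 253 with BCAA and 223 and 248 without. The 769-P groups did not overlap, whereas in CAKI-1 the libraries with BCAA spanned those without. The log2 fold changes were -0.52 (95% confidence interval -1.09 to 0.04) and -0.35 (-0.89 to 0.18). With FOS, it made up under 1% of the FOS family per exon length in every library.

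EGR1, EGR2 and EGR3 gave no call in either line. EGR1 (chr5:138465490-138469315, plus strand), the family's rapid response factor, took 94.3% to 99.4% of EGR transcripts per exon length. Its normalized read counts were 810 and 853 with BCAA and 928 and 973 without in 769-P, and 239 and 221 with BCAA and 258 and 311 without in CAKI-1. In both lines the libraries with BCAA lay below those without. The log2 fold changes were -0.19 (95% confidence interval -0.36 to -0.02; limma adjusted p = 0.072) in 769-P and -0.30 (-0.62 to 0.02; 0.19) in CAKI-1. The first passed with quantile normalization and with edgeR (adjusted p = 0.043 and 0.045). EGR2 (chr10:62811996-62919900, minus strand), known from Schwann cell and lymphocyte differentiation, had 55.3 and 57.3 with BCAA and 26.1 and 35.5 without in 769-P. The groups stood apart, and the log2 fold change of 0.87 (95% confidence interval 0.16 to 1.58) had a limma adjusted p of 0.054. It passed under 5 alternatives, edgeR and thinned reads among them (adjusted p = 0.041 and 0.034). In CAKI-1 EGR2 had only 1 and 5 reads with BCAA and 7 and 3 without. EGR3 had 3 and 3 reads with BCAA and 2 and 2 without in 769-P, at the floor of 3 reads, so no fold change is given. In CAKI-1 EGR3 had 1 and 4 reads with BCAA and 3 and 7 without. Counts this low cover counting error only and could not show a moderate change.

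**Figure D3:**
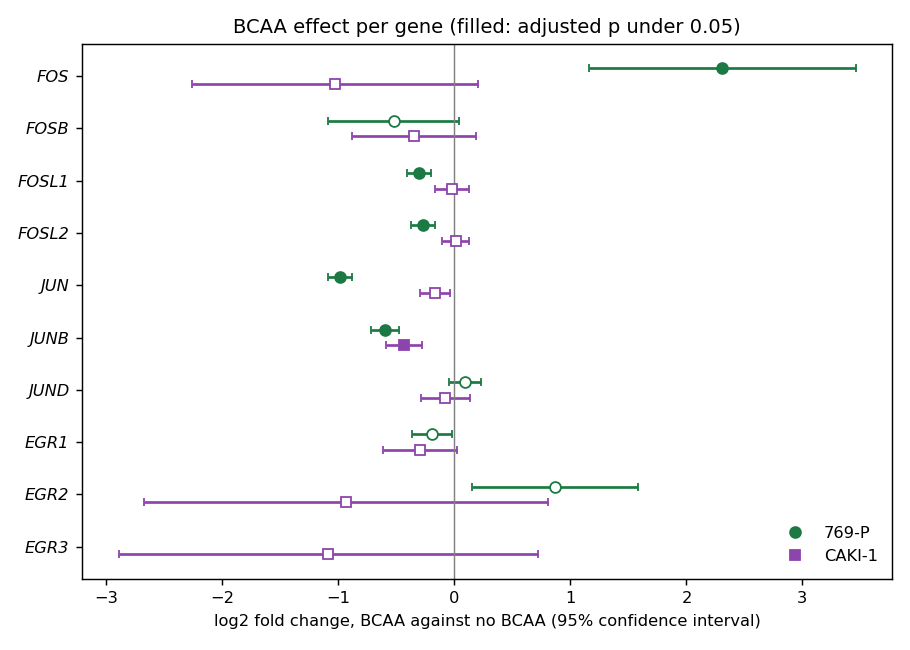
Log2 fold change with BCAA against without (horizontal axis) and its 95% confidence interval for each factor, with circles for 769-P and squares for CAKI-1; filled symbols are adjusted p under 0.05. JUN stands at -0.98 in 769-P and -0.17 in CAKI-1, and FOS at 2.31 and -1.03 with wide intervals; EGR3 in 769-P is left out because it was at the floor of 3 reads.

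Per exon length, levels of the 10 factors spanned a wide range within each line (the tables were normalized separately, so the order is compared within a line). In 769-P without BCAA the order was JUNB (RPKM 127), FOSL1 (108), JUN (66.3), FOSL2 (46.1), JUND (26.9) and EGR1 (6.21), with all neighbors apart over the 2 libraries. With BCAA FOSL1 (88.5) and JUNB (84.7) led and their ranges overlapped, and FOSL2 (38.6) stood before JUN (34.0), JUND (28.9) and EGR1 (5.50). FOSB, EGR2, FOS and EGR3 stayed at 0.336 or less in 769-P. With BCAA EGR2 could not be told from FOS, nor FOS from FOSB, beyond their ranges. In CAKI-1 the order was the same in both conditions. It was FOSL1 (183 with BCAA and 183 without), FOSL2 (111 and 109), JUN (74.6 and 83.0), JUND (55.6 and 57.6), JUNB (26.7 and 35.6), EGR1 (1.87 and 2.28), FOSB (0.889 and 1.07), FOS (0.119 and 0.214), and last EGR2 and EGR3, whose ranges overlapped. JUNB thus stood at the top in 769-P without BCAA and at the fifth place in CAKI-1.

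The other bZIP proteins that pair with JUN or FOS are ATF and BATF proteins, JDP2 and the MAF proteins. Of 12 such genes 11 were tested in 769-P, and 6 were lower (54.5%, beside 18.2% of all genes) and 1 (MAF) higher (9.09%, beside 20.3%) with BCAA. Their median log2 fold change was -1.0. In CAKI-1, 5 of 10 tested were lower (50%, beside 9.05% of all genes) and 0 higher, with a median of -0.15. At an unadjusted p under 0.05, 5 were lower and 1 higher in CAKI-1. There edgeR called 5 lower and 0 higher, whereas DESeq2 called only 2 lower and 0 higher. ATF3, a stress-induced repressor and JUN partner known to respond to amino acid shortage, had normalized read counts of 362 and 367 with BCAA and 2986 and 2813 without in 769-P. In CAKI-1 it had 1986 and 2639 with BCAA and 3120 and 3254 without. ATF3 was lower with BCAA in every library of both lines, by -2.99 ± 0.07 in 769-P (SE; limma adjusted p = 7.9e-11) and by -0.48 ± 0.11 in CAKI-1 (0.0089). The effect differed by -2.51 (interaction term, limma adjusted p = 7.6e-08). MAFF, a small MAF protein, was also lower in both lines, by -2.06 in 769-P and -0.69 in CAKI-1. JDP2, a repressor that pairs with JUN, was lower in 769-P by -1.04 (limma adjusted p = 3.2e-06). In CAKI-1 it had a value of 0.26 that was not called (adjusted p = 0.059), and the difference passed the test (-1.30, 9.7e-06). BATF2 was lower in CAKI-1 (-1.68, limma adjusted p = 0.0044) and had -1.31 in 769-P on fewer reads (0.11).

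Upstream of these genes, SRF, its ternary complex factors and the MAP kinase cascade were measured in a list of 20 genes. In 769-P 7 were higher (35%, beside 20.3% of all genes) and 4 lower with BCAA (20%, near the 18.2% of all genes). In CAKI-1 5 were higher (25%, beside 10.8% of all genes) and 0 lower (beside 9.05%). The medians were -0.01 and 0.07. The count of 0 lower in CAKI-1 was also 0 at an unadjusted p under 0.05, with edgeR and with DESeq2. The count of 5 higher there was also 5 with edgeR and was 3 with DESeq2. SRF itself had normalized read counts of 5524 and 4921 with BCAA and 4879 and 5333 without in 769-P, where the groups overlapped. In CAKI-1 it had 3243 and 2827 with BCAA and 2582 and 2439 without. It was higher in CAKI-1 by 0.27 ± 0.08 (SE; limma adjusted p = 0.028), and the difference between the lines missed the threshold (-0.24; adjusted p = 0.14). RPS6KA3 and RPS6KA1, which encode the kinases RSK2 and RSK1 downstream of ERK, were higher in 769-P by 0.60 and 0.54, and RPS6KA1 in CAKI-1 by 0.29. MAPK3, which encodes ERK1, was higher in 769-P by 0.46. ELK4, a ternary complex factor, was lower there by -0.53. These are transcripts, and kinase activity was not measured.

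Of 28 other immediate early genes tested in 769-P, 13 were lower (46.4%, beside 18.2% of all genes) and 3 higher (10.7%, beside 20.3%). Of 27 in CAKI-1, 10 were lower (37.0%, beside 9.05% of all genes) and 0 higher (beside 10.8%). The medians were -0.16 and -0.18, and these shares are a description. At an unadjusted p under 0.05, with edgeR and with DESeq2 the count higher in CAKI-1 was also 0. KLF4, a zinc finger factor of epithelial differentiation, had 1849 and 1748 with BCAA and 6178 and 6226 without in 769-P. In CAKI-1 it had 158 and 210 with BCAA and 362 and 396 without. The groups did not overlap in either line, and the log2 fold changes were -1.79 and -1.06 (limma adjusted p = 3.5e-10 and 0.00082). TNFAIP3, a feedback inhibitor of NF-kappaB, was lower by -1.61 and -0.40. GADD45B, a stress sensor of the p38 and JNK pathways, and RHOB, a small GTPase, were lower in 769-P by -0.86 and -0.79. In CAKI-1 they had 0.11 and -0.04 and were not called, and for both the effect differed between the lines (-0.97 and -0.75, limma adjusted p = 3.2e-05 and 0.00019).

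Genes known as AP-1 targets moved in both directions. In 769-P 5 of 16 tested were higher (31.2%, beside 20.3% of all genes) and 9 lower (56.2%, beside 18.2%), with a median of -0.29. In CAKI-1 2 of 17 were higher (11.8%, near the 10.8% of all genes) and 4 lower (23.5%, beside 9.05%), with a median of -0.11. IL6, a cytokine, had normalized read counts of 5.31 and 4.28 with BCAA and 55.9 and 103 without in 769-P. In CAKI-1 it had 4591 and 6152 with BCAA and 7844 and 7607 without. It was lower with BCAA in both lines, by -3.74 ± 0.47 (SE; limma adjusted p = 4.3e-05) and -0.54 ± 0.11 (0.004). MMP1, a collagenase and textbook AP-1 target, went the other way in 769-P, with 535 and 434 with BCAA and 53.4 and 61.1 without. Its change of 3.05 ± 0.17 (SE; limma adjusted p = 5.6e-08) was opposite to that of JUN. It had the direction of FOS in 769-P (2.31, on few reads). In CAKI-1 MMP1 had 0 and 1 reads with BCAA and 3 and 7 without. HMOX1, a heme-degrading stress enzyme, was lower in both lines, by -1.35 and -0.72.

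The EGR co-repressors and target genes numbered 10, all tested. In 769-P 5 were lower (50%, beside 18.2% of all genes) and 1 higher (10%, beside 20.3%), with a median of -0.34. In CAKI-1 2 were lower (20%, beside 9.05% of all genes) and 1 higher (10%, near 10.8%), with a median of -0.02. NAB2, the co-repressor that EGR1 itself induces, had 1715 and 1677 with BCAA and 2761 and 2711 without in 769-P. In CAKI-1 it had 1146 and 1200 with BCAA and 1500 and 1526 without. NAB2 was lower in both lines, by -0.69 ± 0.06 (SE; limma adjusted p = 1.2e-06) and -0.37 ± 0.07 (0.0045), and more so in 769-P (difference -0.32, 0.017). F3, which encodes tissue factor, ICAM1, an adhesion molecule, and PDGFB, a growth factor, were lower in 769-P by -1.58, -1.09 and -0.82. In CAKI-1 none of these 3 was called, and for each the effect differed between the lines.

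**Figure D4:**
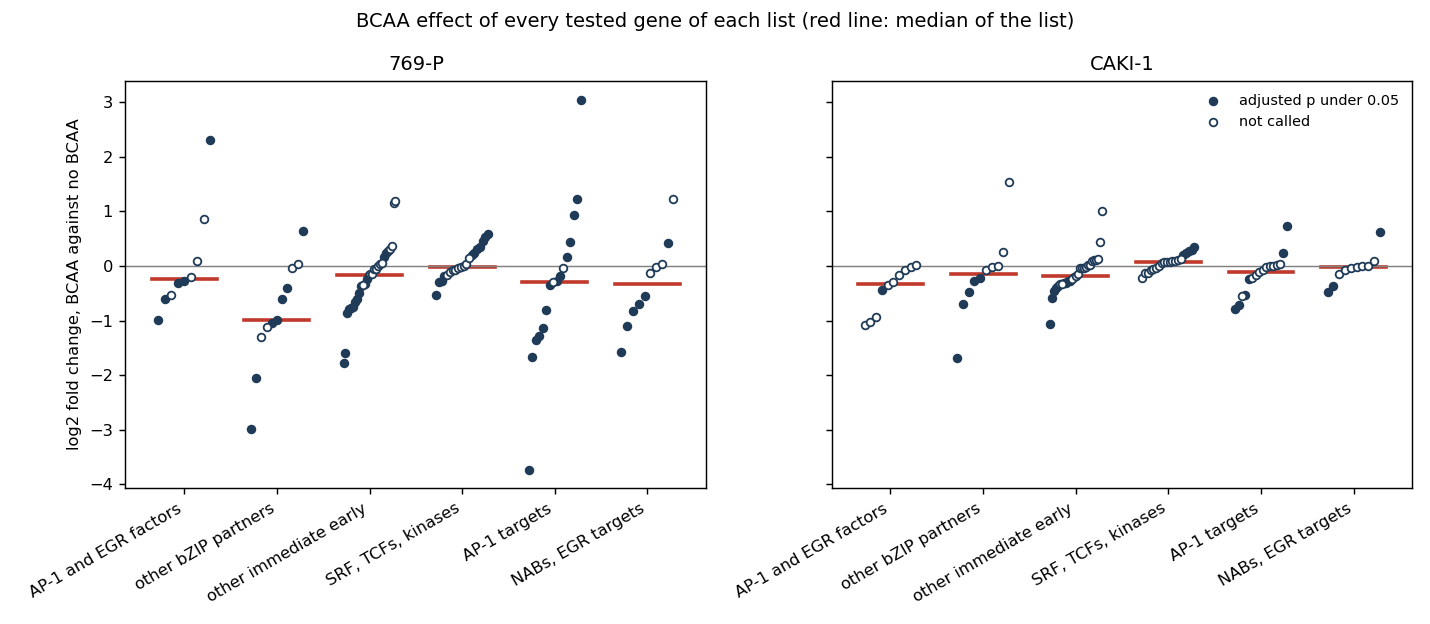
Log2 fold change with BCAA against without (vertical axis) of every tested gene of each list in 769-P (left) and CAKI-1 (right), ordered by value within a list; filled points are adjusted p under 0.05 and red lines the median of all tested genes of a list. The partner list has the lowest median in 769-P (-1.0, led by ATF3 at -2.99) and stands at -0.15 in CAKI-1. EGR3 in 769-P and MMP1 in CAKI-1, both with few reads, are not drawn, while other genes with few reads are, such as MAF in CAKI-1.

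Genes with a pattern most like 4 of the factors were sought by Pearson's r over the 8 libraries, after centering log2 values within each line, among 10861 genes with a mean of at least 100 in both tables. For JUN they were NUAK2, an AMPK-related kinase, GRB10, an adaptor of growth factor receptors, and HAX1, a mitochondrial survival protein, each with r = 0.999. All were lower with BCAA in 769-P, with log2 fold changes of -1.64, -0.89 and -0.85, beside -0.31, -0.16 and -0.13 in CAKI-1. For FOSL1 they were RABEPK (r = 0.991), RILPL1 (0.989) and ZSWIM4 (0.983), for FOS DISP1 (0.985), LAGE3 (0.971) and PNRC2 (0.970), and for EGR1 D2HGDH (0.975), METRNL (0.964) and CCDC40 (0.964). The points share library depth and condition, and the order is a description without a test.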

How the data were processed

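RNA sequencing of 8 libraries, 2 for each of 4 groups, was analysed. For each cell line the authors deposited a table of a normalized signal per gene, made from reads counted per gene and divided by a size factor per library. Per the submitters' processing notes the tools were Trim Galore, TopHat2 2.1.0, SAMtools 1.3.1, HTSeq 0.6.0, DESeq2 and DESeq with build hg38, while the annotation and strand setting are not given in the sources used here. Every value (100%) was a whole multiple, within 0.01 read, of what 1 read is worth, so reads were recovered. Symbols were found for 25032 of 25431 identifiers in 769-P and 23881 of 24190 in CAKI-1. They came from a reference list of gene names, and from GENCODE 29 where that list had none. Exon lengths came from GENCODE 29.

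Within each line, limma 3.58.1 in R 4.3.3 (lmFit, eBayes with trend) was run on log2(value + 1), leaving out genes whose mean was under 1 and using no replicate block, and p-values were adjusted by Benjamini-Hochberg. The difference between lines was the interaction term of 1 fit over 8 libraries. An exact permutation of 2 against 2 libraries cannot go below p = 0.333. Alternatives included edgeR 4.0.16 and DESeq2 1.42.0 on recovered reads (edgeR called 2 factors higher and 5 lower in 769-P, DESeq2 1 and 4). Tests were tried on simulated data. Replicate numbers did not pair the samples (correlation of same-numbered deviations -0.088 in 769-P and 0.061 in CAKI-1). The 10 factors and the lists were chosen with earlier results of these data known. Named from each list were the 4 genes with the largest change among those called in either line with a mean of at least 10, and always ATF3, NAB2 and SRF. The result of 1 gene that this rule names is not reported here.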

Additional observations from a re-analysis of the deposited data

Results flagged for a closer look

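For 4 of the 10 factors the BCAA effect differed between 769-P and CAKI-1 by the interaction term (limma, Benjamini-Hochberg adjusted over 19406 genes, of which 21.1% passed). For JUN the log2 fold change was lower in 769-P by -0.81 (adjusted p = 5.5e-06), with both lines showing lower counts with BCAA. For FOSL1 and FOSL2 it was lower in 769-P by -0.28 each (adjusted p = 0.037 and 0.01). For FOS it was higher in 769-P by 3.34 (adjusted p = 0.011), on at most 70 reads in any library.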

How the results depend on the processing

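In 769-P the number of factors higher with BCAA, 1 as reported, was 2 with a mean filter of 10, median centering, scaling by library total, edgeR or thinned reads (EGR2 in addition to FOS) and 0 without a trend in the variance prior, where JUN alone was called. The number lower, 4, was 1 without the trend and 2 when a 1.5-fold change was also asked for. Over all 22391 genes 4536 were higher and 4069 lower as reported, and 2001 and 1657 without the trend. With the fold threshold 1911 were lower. In CAKI-1 the number lower, 1, was 0 without the trend or with the fold threshold, and 2 with the spread from all 8 libraries or edgeR without a filter, where JUN was added. Without the trend 0 of all 21347 genes were called in CAKI-1, and with the fold threshold 481 were lower, beside 1931 as reported. The number that differed between lines, 4, was 1 without the trend and 2 with the fold threshold. Over all genes the difference was called higher for 2122 and lower for 1966 as reported. These were 813 and 794 without the trend, and 917 and 927 with the fold threshold. Leaving out 1 library gave 0 to 0 higher and 1 to 3 lower in 769-P, 0 to 0 higher and 0 to 0 lower in CAKI-1, where 0 genes of the table were called, and 2 to 5 that differed. The cause was not tested, beyond the fewer samples.

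JUN in 769-P kept its direction and call under every alternative (-1.04 to -0.94) and without each library (-1.03 to -0.93). FOS in 769-P kept its direction, from 1.85 to 2.47 over the alternatives. With all libraries kept, the values that turned sign were near 0: in CAKI-1 FOSL1 was 0.021 with median centering and FOSL2 was -0.0015 and -0.0020 with edgeR with and without its filter. Without 1 library, values in CAKI-1 ran from -0.81 to 0.10 for FOSB, from -0.12 to 0.078 for FOSL1, from -0.012 to 0.031 for FOSL2 and from -0.26 to 0.10 for JUND. The differences between lines ran from -0.63 to 0.28 for FOSB, from -0.011 to 0.35 for JUND and from -0.031 to 0.24 for EGR1. Without CAKI-1 BCAA replicate 2 the difference passed for JUND (0.35) and EGR2 (2.50).

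With the replicate number as a block, which only shares a number between samples, the same factors were called as in the fit without it (FOS in 769-P at an adjusted p of 0.00013 and JUNB in CAKI-1 at 0.0015, by limma), and the counts stayed at 1, 4, 0, 1 and 4. Depth limits FOS, EGR2 and EGR3, which had at most 73 reads in any library, and FOSB in 769-P, which had at most 74 there.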

Other observations

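Among the genes of the lists, a few chosen after their values were seen passed the test in opposite directions in the 2 lines. For each the difference between lines also passed. Choosing calls of opposite sign makes that likely beforehand, so it is not separate support. PHLDA1, an immediate early gene of cell survival, had normalized read counts of 11419 and 12428 with BCAA and 9887 and 9813 without in 769-P. In CAKI-1 it had 4234 and 5648 with BCAA and 7415 and 7320 without. Its log2 fold change was 0.27 in 769-P and -0.59 in CAKI-1 (limma adjusted p = 0.00062 and 0.0021; difference 0.87, 0.00043). GEM, a small GTPase, had 0.24 and -0.32 (difference 0.56, adjusted p = 0.0076), and ZFP36L1, an mRNA decay factor, had 0.16 and -0.19 (difference 0.35, 0.0014). FN1, which encodes fibronectin, had 0.42 and -0.47 (difference 0.89, limma adjusted p = 0.00014). EZR, which encodes ezrin, had the opposite order, with -0.28 in 769-P and 0.25 in CAKI-1 (difference -0.53, 4.4e-05).

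HBEGF, an EGF receptor ligand, was higher with BCAA in both lines while JUNB was lower in both. It had normalized read counts of 2145 and 1857 with BCAA and 1097 and 994 without in 769-P, and 2683 and 2718 with BCAA and 1513 and 1755 without in CAKI-1. The groups did not overlap in either line, and the log2 fold changes were 0.93 and 0.73 (limma adjusted p = 2.2e-06 and 9.3e-05).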
